A study of Mus musculus with 12 samples.

Results

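The core circadian clock genes were examined in the hippocampus of mice: Arntl, Clock, Per1, Per2, Per3, Cry1, Cry2, Nr1d1, Nr1d2 and Dbp. These 10 genes were chosen by name, from their textbook place in the molecular clock, though earlier results of these data were already known. All 10 were found among the 23382 gene rows of the deposited table. Total RNA from hippocampus, depleted of ribosomal RNA, was sequenced as paired ends in 12 libraries, 3 in each of 4 groups. The groups were mutant mice given THC, mutant mice given vehicle, control mice given THC and control mice given vehicle. THC, delta-9-tetrahydrocannabinol, is the main psychoactive compound of cannabis, and the series title places the exposure in adolescence. The mutants are labelled aDN-DISC1, a line carrying a mutant form of DISC1, a scaffold protein linked to psychiatric illness, and the title describes the genetic vulnerability as astrocyte-specific. The sources used here do not give the promoter that drives the mutant form, control libraries were placed by their titles, and all mice share a C57BL/6 background. The labels give no clock time or light phase of tissue collection, no dose, age or sex, and no statement that the libraries of a group are separate mice, so p-values reflect only how far these libraries scatter, which may be technical. Vehicle libraries carry the labels' library numbers 6 to 11 and THC libraries 1 to 5 and 12, so treatment and library order cannot be told apart.

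The molecular clock is a feedback loop that runs in nearly every cell. The proteins of Arntl (BMAL1) and Clock pair up and switch on genes with E-box sequences, among them the Per, Cry and Nr1d genes and Dbp. The PER and CRY proteins return to block that pair, while the nuclear receptors of Nr1d1 and Nr1d2 (REV-ERB alpha and beta) repress Arntl, so Arntl RNA normally peaks when Nr1d1, Nr1d2 and Dbp RNA are low. DBP drives genes with D-box sequences and serves as a readout of the clock's output. The master pacemaker is the suprachiasmatic nucleus of the hypothalamus, while the hippocampus runs a clock of its own, in which glucocorticoids and neuronal activity can also induce Per1. Levels without a collection time show neither the rhythm nor where in the cycle the genes stand.

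The stretches before the start sites of 5 members are shown because they carry the clock's own control sequences or belong to the pair that varied most oppositely between libraries (Cry2 and Nr1d2). They are the 250 bases upstream of the start in RefSeq's annotation of GRCm38.p6, written 5′ to 3′ on the gene's strand, and capitals mark matches to the motifs searched. Per1 lies at chr11:69098699-69098948 on the plus strand, Per3 at chr4:151044666-151044915, Cry1 at chr10:85185055-85185304, Cry2 at chr2:92434070-92434319 and Nr1d2 at chr14:18239107-18239356, these others on the minus strand.
Per1: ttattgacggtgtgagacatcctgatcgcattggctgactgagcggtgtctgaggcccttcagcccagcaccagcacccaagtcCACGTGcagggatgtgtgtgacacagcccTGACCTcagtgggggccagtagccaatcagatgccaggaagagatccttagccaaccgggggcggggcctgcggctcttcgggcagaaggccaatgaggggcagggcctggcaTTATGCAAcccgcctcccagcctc
Per3: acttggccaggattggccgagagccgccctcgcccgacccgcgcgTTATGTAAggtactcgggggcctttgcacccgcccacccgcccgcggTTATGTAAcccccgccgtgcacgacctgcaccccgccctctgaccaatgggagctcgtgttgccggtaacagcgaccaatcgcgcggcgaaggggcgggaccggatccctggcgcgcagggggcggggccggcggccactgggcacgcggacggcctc
Cry1: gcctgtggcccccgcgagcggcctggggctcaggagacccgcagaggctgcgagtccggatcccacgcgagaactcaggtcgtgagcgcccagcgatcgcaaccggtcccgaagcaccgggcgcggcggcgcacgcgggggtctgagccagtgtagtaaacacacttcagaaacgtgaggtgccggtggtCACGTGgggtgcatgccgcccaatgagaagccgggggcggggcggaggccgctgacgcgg
Cry2: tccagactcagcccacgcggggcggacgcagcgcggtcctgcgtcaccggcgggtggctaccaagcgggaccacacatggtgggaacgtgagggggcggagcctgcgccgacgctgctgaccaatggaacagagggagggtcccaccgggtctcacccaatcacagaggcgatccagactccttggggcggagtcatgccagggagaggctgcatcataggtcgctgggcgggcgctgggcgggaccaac
Nr1d2: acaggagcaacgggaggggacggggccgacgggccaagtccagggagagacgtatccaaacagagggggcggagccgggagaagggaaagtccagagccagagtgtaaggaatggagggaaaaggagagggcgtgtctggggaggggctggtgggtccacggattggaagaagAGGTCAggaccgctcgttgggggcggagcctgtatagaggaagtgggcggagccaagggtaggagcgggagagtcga

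A set of 4 motifs was searched on both strands in windows of 300 bases, 250 before and 50 after each start. The E-box CACGTG, bound by the BMAL1 and CLOCK pair, was present in 7.15% of all 32851 RefSeq promoter windows. The D-box TTATGNAA, bound by DBP, was in 3.38%, the nuclear receptor half-site AGGTCA in 16.26% and the cAMP response element TGACGTCA in 1.79%. The Per1 start shown above carried an E-box at base -166, a half-site at -137 on the other strand and a D-box at -24, counted from the start. The window of another Per1 start, at chr11:69099902-69100201, held none of the 4 motifs. Per3 carried D-boxes at -205 and -158, Cry1 an E-box at -60 and Nr1d2 a half-site at -77. An alternative start of Arntl had a half-site at +32 and one of Clock a half-site at -119. None of the 4 motifs was in the windows of Cry2, Dbp or Nr1d1, which says only that these letters are not in these windows. No motif overlapped another in the members' windows. A window was matched for 9 of the 10 members, Per2 being without an entry.

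All 10 members passed the filter on low counts and were tested. Levels compared between genes are given as CPM (reads per 1000000 counted, with TMM scaling) per kilobase of mean transcript length, as the mean ± SD over all 12 libraries. Lengths are those of the GENCODE transcripts paired with each gene's RefSeq transcripts. Dbp was highest at 34.1 ± 7.09, followed by Nr1d2 at 30.4 ± 3.18, Cry2 at 25.4 ± 2.69, Clock at 19.0 ± 0.851 and Arntl at 16.3 ± 1.68. The second tier held Nr1d1 at 7.96 ± 0.800, Per3 at 6.59 ± 0.849, Per1 at 6.42 ± 0.474, Cry1 at 6.13 ± 1.14 and Per2 at 4.55 ± 0.514 CPM per kilobase. The ranges of neighbours in this order overlapped everywhere except between Arntl, never below 13.98, and Nr1d1, never above 9.12. Clock was the steadiest member: the SD of its log2 CPM within groups was 0.06, at percentile 10.8 of the 11735 tested genes at a mean of 5 CPM or more. Dbp was the most variable with an SD of 0.30 (percentile 92.6), followed by Cry1 with 0.20 (percentile 80.9), against a median of 0.11 over those genes.

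Total expected counts were 33165903 to 41389957 per library. The hippocampal excitatory neuron markers summed to 548.2 to 761.7 CPM, while 4 of the 6 listed suprachiasmatic markers, Avp, Nms, Lhx1 and Six6, stood at 0 to 0.381 CPM. The other 2 of that list stood higher, Vip at 6.84 to 19.1 CPM and Rgs16 at 4.62 to 11.2 CPM. Some libraries stood apart by markers of other tissue. Choroid plexus markers summed to 4882 to 16620 CPM in 6 libraries (mutant THC 1 and 3, all 3 mutant vehicle libraries and control THC 2) and to 318.7 to 398.4 CPM in the other 6. Striatal neuron markers summed to 4565 CPM in mutant THC 3 and 577.1 CPM in mutant vehicle 3, against 170.0 to 199.2 CPM elsewhere. Results that rest on these libraries are given with and without them, or with the choroid plexus gene Ttr as a covariate.

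Of the activators, Arntl (chr7:113178471-113314126) had 42.3, 51.3 and 50.2 CPM in mutant THC and 38.7, 42.1 and 38.2 CPM in mutant vehicle libraries. In control THC libraries it had 48.5, 44.3 and 42.6 CPM, and in control vehicle libraries 41.8, 50.9 and 44.5 CPM. In this bulk tissue, fewer cells of a type and less RNA per cell cannot be told apart. The mutant vehicle libraries included the 2 lowest of all 12 values, and every mutant vehicle library was below every mutant THC and every control THC library, while the other groups overlapped. Clock (chr5:76209868-76305603) had 148, 139 and 149.6 CPM in mutant THC, 138, 145 and 157 in mutant vehicle, 142, 138 and 138 in control THC and 141, 134 and 141 CPM in control vehicle libraries. All 4 groups overlapped for Clock.

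The repressors of the PER family were close together in all groups. Per1 (chr11:69095108-69109965), the member that stress hormones and activity induce fastest, had 29.2, 28.6 and 34.1 CPM in mutant THC and 28.2, 31.1 and 25.8 CPM in mutant vehicle libraries. It had 30.6, 30.3 and 32.7 CPM in control THC and 28.9, 28.3 and 30.9 CPM in control vehicle libraries, so every group overlapped every other. Per2 (chr1:91415977-91459351), the PER gene whose mutation most disturbs the rhythm of mice, had 24.3, 28.0 and 30.4 CPM in mutant THC and 23.0, 23.2 and 21.3 CPM in mutant vehicle libraries. It had 28.4, 27.1 and 29.6 CPM in control THC and 26.6, 26.3 and 30.1 CPM in control vehicle libraries. The 3 mutant vehicle values of Per2 were the lowest of the 12, below every library of the other groups. Per3 (chr4:150997018-151044707), the PER gene the clock can most easily do without, had 34.6, 38.6 and 41.5 CPM in mutant THC, 37.6, 34.3 and 35.8 in mutant vehicle, 37.9, 43.1 and 52.2 in control THC and 37.8, 44.4 and 36.5 CPM in control vehicle libraries. Control THC 3 held the highest Per3 value. THC and vehicle libraries overlapped in each genotype, as did mutants and controls under each treatment, while every mutant vehicle library was below every control THC library.

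The cryptochromes are the stronger repressors of the BMAL1 and CLOCK pair. Cry1 (chr10:85131700-85185054) had 18.7, 18.6 and 29.0 CPM in mutant THC, 16.6, 15.6 and 17.5 in mutant vehicle, 18.0, 16.7 and 19.1 in control THC and 18.3, 17.2 and 17.1 CPM in control vehicle libraries. Apart from mutant THC 3 at 29.0, all values of Cry1 lay between 15.6 and 19.1. Cry2 (chr2:92403646-92434085) had 91.5, 115 and 109 CPM in mutant THC and 94.98, 88.9 and 82.3 CPM in mutant vehicle libraries. In control THC libraries Cry2 had 110.1, 108 and 116 CPM, and in control vehicle libraries 97.4, 98.3 and 101 CPM. Every control THC library was above every control vehicle library, and every mutant vehicle library was below them both, while mutant THC 1 lay among the mutant vehicle values.

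The REV-ERB receptors leaned the other way. Nr1d1 (chr11:98767932-98775377) had 18.6, 19.1 and 22.6 CPM in mutant THC, 24.8, 24.3 and 20.6 in mutant vehicle, 19.8, 19.0 and 22.7 in control THC and 23.3, 21.7 and 23.3 CPM in control vehicle libraries. Nr1d2 (chr14:18204056-18239106) had 138, 117 and 147 CPM in mutant THC, 146, 158 and 169 in mutant vehicle, 138, 126 and 128 in control THC and 157, 136 and 143 CPM in control vehicle libraries. For both receptors the THC means were below the vehicle means in each genotype, with overlapping libraries. The output gene Dbp (chr7:45705100-45710203) had 53.6, 47.4 and 98.6 CPM in mutant THC, 65.3, 64.4 and 65.3 in mutant vehicle, 57.3, 56.9 and 58.0 in control THC and 71.6, 58.5 and 54.8 CPM in control vehicle libraries. The mutant THC group held both the highest Dbp value and the 2 lowest. The highest library was 2.08 times the lowest for Dbp, and 1.51 times with mutant THC 3 left out.

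**Figure D1:**
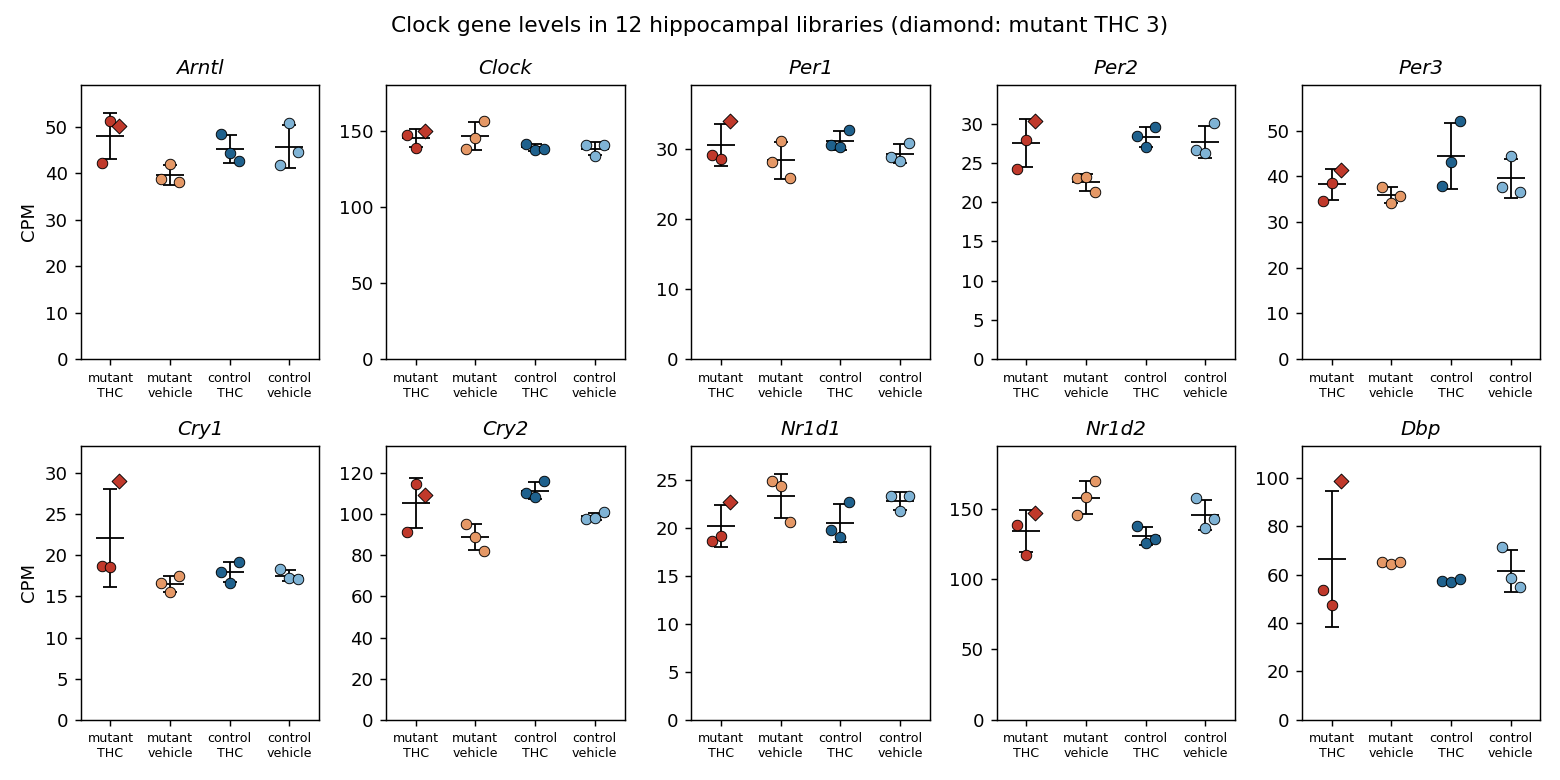
Expression of the 10 clock genes in CPM (y axes from 0) in each of the 12 libraries, by group, with bars for the mean ± SD of 3 libraries and a diamond for mutant THC 3. That library is the highest of all 12 for Per1, Per2, Cry1 and Dbp, and the 3 mutant vehicle libraries are the lowest for Per2.

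Mutant THC 3 was the highest library for 4 of the 10 members, Per1, Per2, Cry1 and Dbp. Npas2, which can stand in for Clock and was singled out after its values were seen, had 27.3 CPM in that library, against 7.74 to 14.4 CPM in the other 11. All 9 striatal markers were also highest in that library, summing to 4565 CPM. Mutant vehicle 3, the next highest at 577.1 CPM, was the lowest of the 12 for Per1 at 25.8 and Per2 at 21.3 CPM. It had 17.5 CPM for Cry1, 65.3 for Dbp and 12.4 for Npas2. Whether that tissue bears on the clock gene values was not tested.

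THC in mutant mice, set against vehicle in mutant mice, gave more clock genes with an unadjusted p under 0.05 than any other of the 8 comparisons, 5 of 10, and none passed the threshold after adjustment. Differences are log2 fold changes ± the standard error (SE) from edgeR's quasi-likelihood test, p-values were adjusted over the 15802 genes tested by Benjamini-Hochberg, and a gene was called at an adjusted p under 0.05. Per2 was higher by 0.29 ± 0.09, with a mean of 27.5 ± 3.09 CPM in mutant THC and 22.5 ± 1.08 CPM in mutant vehicle libraries (SD, n = 3 each). Arntl was higher by 0.27 ± 0.09, Cry2 by 0.25 ± 0.08 and Cry1 by 0.42 ± 0.15, while Nr1d2 was lower, at -0.24 ± 0.09. These 5 had unadjusted p-values of 0.00666, 0.0138, 0.0116, 0.0173 and 0.0237 in edgeR's test in that order, and every one had an adjusted p of 0.81. Of all genes, 0% were called in this comparison and 5.73% had an unadjusted p under 0.05. The libraries did not overlap for Per2, Cry1 and Arntl, 3 of the 10 members, all higher under THC, against 8.47% of all genes. The median log2 fold change was 0.10 over the members and -0.008 over all genes. Nr1d1 stood at -0.21 ± 0.10, Per1 at 0.11 ± 0.09, Per3 at 0.09 ± 0.12, Dbp at 0.03 ± 0.22 and Clock at -0.01 ± 0.06.

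Several of these values depended on mutant THC 3. The difference of Cry1 between THC and vehicle in mutants was 0.17 ± 0.08 without that library (unadjusted p = 0.0626 in edgeR's test), that of Per1 0.03 ± 0.08, and that of Dbp changed sign, to -0.37 ± 0.10 (unadjusted p = 0.00417 in edgeR's test, adjusted p = 0.996). Per3 was at 0.03 ± 0.13 without it. Per2 at 0.21, Arntl at 0.24, Cry2 at 0.22 and Nr1d2 at -0.31 kept their direction. Other libraries mattered too. Without mutant THC 2, Nr1d2 was at -0.15 (unadjusted p = 0.101), Cry2 at 0.18 (unadjusted p = 0.0553) and Arntl at 0.22 (unadjusted p = 0.0557) in edgeR's test. Without mutant vehicle 3, Nr1d2 was at -0.18 (unadjusted p = 0.0969 in edgeR's test), and without mutant vehicle 2 Cry1 was at 0.37 and Nr1d2 at -0.235 (unadjusted p = 0.059 and 0.0508 in that order). Per2 kept an unadjusted p under 0.05 in each of the 12 fits with 1 library left out. Choroid plexus markers summed to 323.3 to 10220 CPM in mutant THC and 6048 to 16620 CPM in mutant vehicle libraries, and striatal markers to 184.6 to 4565 CPM and 175.6 to 577.1 CPM in the same groups. All 9 choroid plexus markers were lower and all 9 striatal markers higher in mutant THC, with none called. All 6 meningeal and mural markers were lower in mutant THC, 4 with an unadjusted p under 0.05, summing to 85.15 to 142.2 CPM in mutant THC and 146.9 to 219.3 CPM in mutant vehicle libraries. Of the 4 endothelial markers 3 were higher with an unadjusted p under 0.05, with sums of 90.88 to 110 CPM and 83.53 to 94.79 CPM in the same groups. None of these was called, and their part in the clock gene values was not tested. With Ttr as a covariate the values were 0.26 ± 0.10 for Per2, 0.22 ± 0.10 for Arntl, 0.18 ± 0.08 for Cry2 and -0.19 ± 0.09 for Nr1d2.

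THC in control mice, set against vehicle in control mice, gave no member with an unadjusted p under 0.05. Cry2 came closest, higher by 0.17 ± 0.08 (unadjusted p = 0.0588, adjusted p = 0.72 in edgeR's test), with 111 ± 4.04 CPM in control THC and 98.9 ± 1.84 CPM in control vehicle libraries (SD, n = 3 each). It was the one member whose libraries did not overlap, against 16.4% of all genes. Per3 stood at 0.17 ± 0.12, Per1 at 0.09 ± 0.08, Nr1d1 at -0.15 ± 0.10 and Nr1d2 at -0.16 ± 0.09. Per2 at 0.04 ± 0.09, Cry1 at 0.03 ± 0.15, Arntl at -0.02 ± 0.09 and Clock at 0.01 ± 0.06 lay near 0, and Dbp was at -0.10 ± 0.22. Of all genes, 0% were called and 7% had an unadjusted p under 0.05. The median was 0.02 over the members and 0 over all genes. Leaving out control THC 3 took the value of Per3 down to 0.03. Choroid plexus markers summed to 319.8 to 8714 CPM in control THC and 318.7 to 398.4 CPM in control vehicle libraries (control THC 2 alone held the high value), 4 of the 9 had an unadjusted p under 0.05, and their part in these values was not tested beyond the covariate fit, which gave 0.22 ± 0.08 for Cry2.

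**Figure D2:**
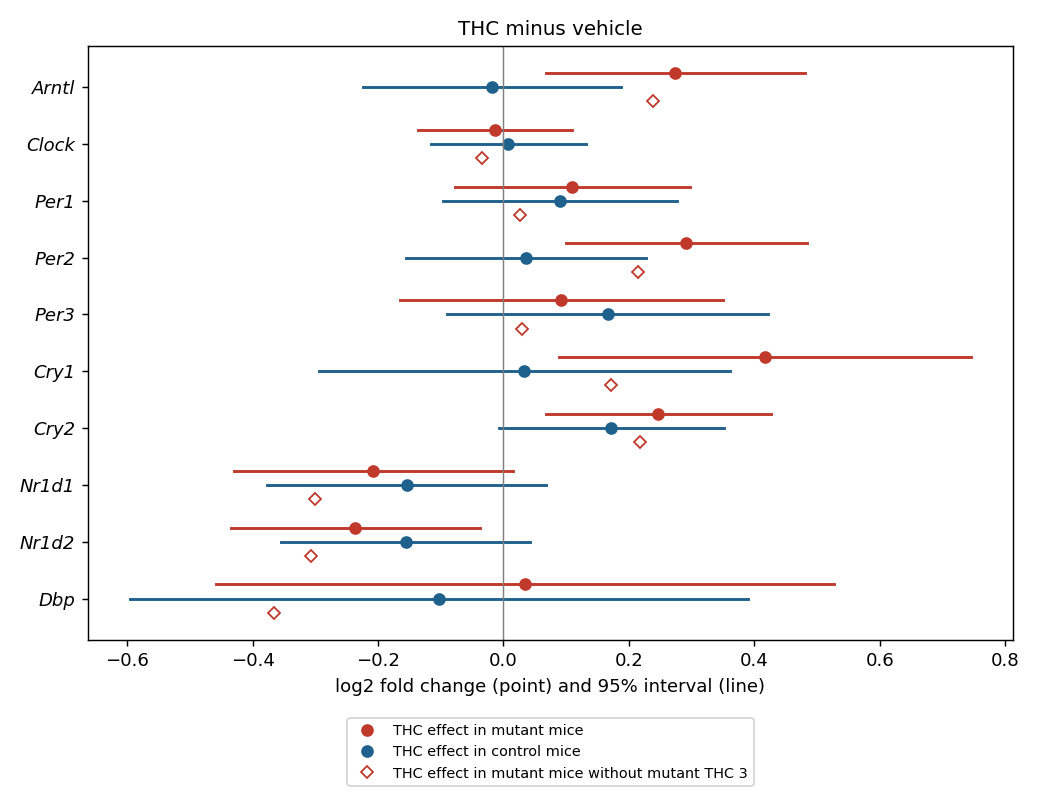
Log2 fold change of THC over vehicle (points, x axis) with its 95% interval (lines) for each clock gene, in mutant mice (red) and control mice (blue), and in mutant mice without mutant THC 3 (open diamonds). The intervals of Per2, Arntl, Cry1, Cry2 and Nr1d2 in mutants leave out 0 before adjustment, and the diamonds of Cry1 and Dbp lie far from their points.

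Averaged over both genotypes, which uses all 12 libraries, Cry2 was higher under THC by 0.21 ± 0.06 (unadjusted p = 0.00397, adjusted p = 0.79 in edgeR's test) and ranked 65 by p among 15802 genes. Nr1d2 was lower, at -0.20 ± 0.06, Nr1d1 lower at -0.18 ± 0.07 and Per2 higher at 0.16 ± 0.06, each with an adjusted p of 0.79 in the same test. These 4 of 10 members had an unadjusted p under 0.05, against 6.05% of all genes, and 0% of all genes were called. The median was 0.11 over the members and -0.002 over all genes. The repressor Cry2 and the receptors Nr1d1 and Nr1d2 had the same sign in both genotypes: Cry2 was at 0.25 in mutants and 0.17 in controls, Nr1d1 at -0.21 and -0.15, and Nr1d2 at -0.24 and -0.16. Per1, Per2, Per3 and Cry1 likewise stood higher under THC in both genotypes, while Arntl, Clock and Dbp differed in sign between them. Without mutant THC 3, Per2 came to 0.126 ± 0.058 (unadjusted p = 0.053 in edgeR's test). Cry2 at 0.196, Nr1d1 at -0.226 and Nr1d2 at -0.23 kept an unadjusted p under 0.05 without that library. Cry1, at 0.22 ± 0.11, came to 0.10 ± 0.06 without mutant THC 3, while Dbp stood at -0.23 ± 0.07 without it and -0.03 ± 0.16 with it.

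Whether the THC effect differed between genotypes was tested by the interaction. The value of Arntl was 0.29 ± 0.13 (unadjusted p = 0.0491, adjusted p = 0.76 in edgeR's test), that is 0.27 in mutants and -0.02 in controls. It was the one member of 10 with an unadjusted p under 0.05, against 6.59% of all genes, and 0% of all genes were called. Per2 stood at 0.25 ± 0.12 and Cry1 at 0.38 ± 0.21, which came to 0.18 ± 0.12 and 0.14 ± 0.11 without mutant THC 3. Arntl stood at 0.255 ± 0.141 without mutant THC 3 (unadjusted p = 0.0986 in edgeR's test). With Ttr as a covariate Arntl stood at 0.19 ± 0.14 (unadjusted p = 0.222 in the same test). The other 7 members lay between -0.08 and 0.14, and the 95% interval of Clock, the narrowest, ran over -0.20 to 0.15. The median was 0.05 over the members and 0.005 over all genes.

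The mutation under vehicle, mutant vehicle set against control vehicle, went with lower Per2, at -0.30 ± 0.09. Per2 averaged 22.5 ± 1.08 CPM in mutant vehicle and 27.7 ± 2.08 CPM in control vehicle libraries (SD, n = 3 each), lower in 3 of 3 mutant libraries. The unadjusted p was 0.00588 and the adjusted p 0.16 in edgeR's test. Per2 was the one member with an unadjusted p under 0.05, against 17.8% of all genes, and 0.00633% of all genes, 1 of 15802, were called. Per2 and Cry2 did not overlap between the groups, both lower in mutants, against 28% of all genes that did not overlap. Cry2 stood at -0.16 ± 0.08, Arntl at -0.21 ± 0.09, Per3 at -0.14 ± 0.12, Cry1 at -0.08 ± 0.15, Per1 at -0.05 ± 0.09, Nr1d1 at 0.03 ± 0.10, Dbp and Clock both at 0.08, with SEs of 0.22 and 0.06, and Nr1d2 at 0.12 ± 0.09. The median was -0.065 over the members and -0.005 over all genes. This comparison and that of THC in mutants share the 3 mutant vehicle libraries, in which Per2 was low, so both differences of Per2 rest on the same values, and the other comparisons likewise share groups.

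Choroid plexus markers summed to 6048 to 16620 CPM in mutant vehicle and 318.7 to 398.4 CPM in control vehicle libraries, and all 9 of 9 were higher in mutants with an unadjusted p under 0.05, 0 of them called. With Ttr as a covariate Per2 stood at -0.23 ± 0.13 (unadjusted p = 0.107 in edgeR's test), Arntl at -0.065 ± 0.128 and Per3 at -0.05 ± 0.17, while Dbp turned to -0.20 ± 0.33 and Cry2 came to -0.004 ± 0.104. In these 6 libraries high Ttr and the mutant genotype coincide and cannot be told apart.

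The mutation under THC, mutant THC set against control THC, gave 0 of 10 members with an unadjusted p under 0.05, against 8.98% of all genes, and 0.00633% of all genes were called. No member's groups were free of overlap, against 10.5% of all genes. Cry1 was at 0.30 ± 0.15, with 22.1 ± 5.97 CPM in mutant THC and 17.9 ± 1.24 CPM in control THC libraries (SD, n = 3 each), and came to 0.05 ± 0.08 without mutant THC 3. Per3 stood at -0.21 ± 0.12 and Dbp at 0.21 ± 0.22, which turned to -0.19 ± 0.10 without mutant THC 3. The other 7 lay between -0.08 and 0.09. The median was 0.006 over the members and 0.005 over all genes. All 9 striatal markers were higher in mutant THC with an unadjusted p under 0.05, summing to 184.6 to 4565 CPM, against 170.0 to 196.9 CPM in control THC, with 0 called. Choroid plexus markers summed to 323.3 to 10220 CPM and 319.8 to 8714 CPM in the same groups. All 5 oligodendrocyte markers were higher in mutant THC with an unadjusted p under 0.05 and 0 called, summing to 4180 to 6688 CPM in mutant THC and 3150 to 4734 CPM in control THC libraries. Their part in the clock gene values was not tested.

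**Figure D3:**
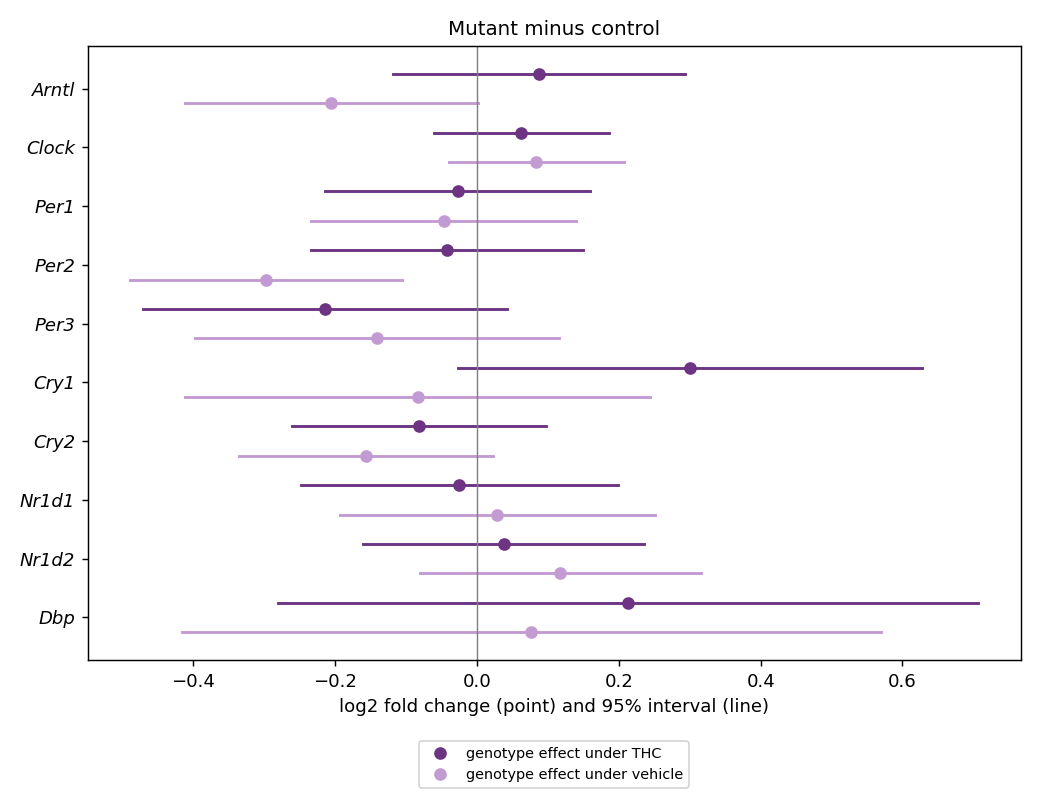
Log2 fold change of mutant over control (points, x axis) with its 95% interval (lines) for each clock gene, under THC (dark) and under vehicle (light). The interval of Per2 under vehicle leaves out 0 before adjustment, at -0.49 to -0.11, while Per2 under THC is at -0.04.

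Averaged over treatments, Per2 was lower in mutants, at -0.17 ± 0.06 (unadjusted p = 0.0188, adjusted p = 0.18 in edgeR's test). It was the one member of 10 with an unadjusted p under 0.05, against 21.2% of all genes, and 0.00633% of all genes were called. Per3 stood at -0.18 ± 0.08 and Cry2 at -0.12 ± 0.06, and with Ttr as a covariate the 3 values were -0.12, -0.12 and -0.025 in that order. All 5 oligodendrocyte markers were higher in mutants with an unadjusted p under 0.05 here too, with a median of 0.39, 0 called, and a part in these values that was not tested. Other settings called far more genes in this comparison, 785 with DESeq2 and 942 with edgeR without mutant THC 2, with 0 members among them in each. The median was -0.02 over the members and 0.002 over all genes. Mutant THC set against control vehicle gave Cry1 at 0.33 ± 0.15 (unadjusted p = 0.0467, adjusted p = 0.35 in edgeR's test), the one member with an unadjusted p under 0.05, against 14.1% of all genes, and 0.00633% of all genes were called. Cry1 was also the one member whose libraries did not overlap, against 17.5% of all genes, and stood at 0.09 ± 0.08 without mutant THC 3. The median was 0.07 over the members and 0.006 over all genes.

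Across the 12 libraries some members varied together. Of the 45 pairs, 2 passed an adjusted p of 0.05 by Pearson's r of log2 CPM in a 2-sided permutation test with 100000 resamples, and 0 passed by Spearman's rho. Per2 and Cry2, a PER and a CRY repressor whose proteins act in one complex, varied together, with r = 0.870 (permutation p = 0.00024, adjusted 0.0108) and rho = 0.832 (permutation p = 0.00134, adjusted 0.0603). Leaving out the 2 libraries farthest from the median of Per2 gave r = 0.803, and leaving out mutant THC 3 gave 0.866. Among the 6 libraries with high Ttr r was 0.933 and among the 6 with low Ttr 0.515. Deviations from the group means gave r = 0.784, with an exact permutation p of 0.0262 within groups, adjusted 0.197.

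Cry2 and Nr1d2, a repressor of the main loop and a receptor of the second loop, varied in opposite directions, with r = -0.796 (permutation p = 0.00195, adjusted 0.0439) and rho = -0.741 (permutation p = 0.00803, adjusted 0.0831). Without the 2 libraries farthest from the median of Cry2 r was -0.670, without mutant THC 3 -0.856, within the 6 high-Ttr libraries -0.743 and within the 6 low-Ttr libraries -0.803. Deviations from the group means gave r = -0.512, with an exact permutation p of 0.301 within groups, adjusted 0.590. Without mutant THC 3 r of the deviations was -0.768, for which no p was computed. In the windows described above, Cry2 held none of the motifs searched and Nr1d2 a receptor half-site. Without mutant THC 3, Dbp and Nr1d2 formed a further pair past the threshold, with r = 0.815 (adjusted 0.0390 by permutation), against 0.571 with all libraries.

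Deviations from the group means singled out other pairs. Cry1 and Dbp reached r = 0.925, and Clock and Nr1d2 r = 0.874, each with an exact permutation p of 0.000772, the smallest that the 1296 arrangements within groups can give, adjusted 0.0174. The value for Cry1 and Dbp rests on mutant THC 3, the library highest for both: r of the deviations was 0.431 without it, while that of Clock and Nr1d2 was 0.873. In log2 CPM not centred on the groups, Cry1 and Dbp gave r = 0.665 over 12 libraries and -0.355 over the 11 left without mutant THC 3. Clock and Nr1d2, likewise not centred, gave r = 0.643 over 12 libraries (adjusted 0.1596 by permutation). Their r was 0.719 among the 6 libraries with high Ttr and 0.315 among the 6 with low Ttr. Arntl and its repressor Nr1d2 gave r = -0.585 over the 12 libraries (adjusted 0.217 by permutation), and Arntl and Nr1d1 -0.318. Dbp and Arntl gave r = -0.06 and rho = -0.434 with all 12 libraries, and r = -0.669 without mutant THC 3 (adjusted 0.1295 by permutation). Dbp stood at 0.492 with Nr1d1 and 0.571 with Nr1d2, neither past the threshold with all 12 libraries.

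**Figure D4:**
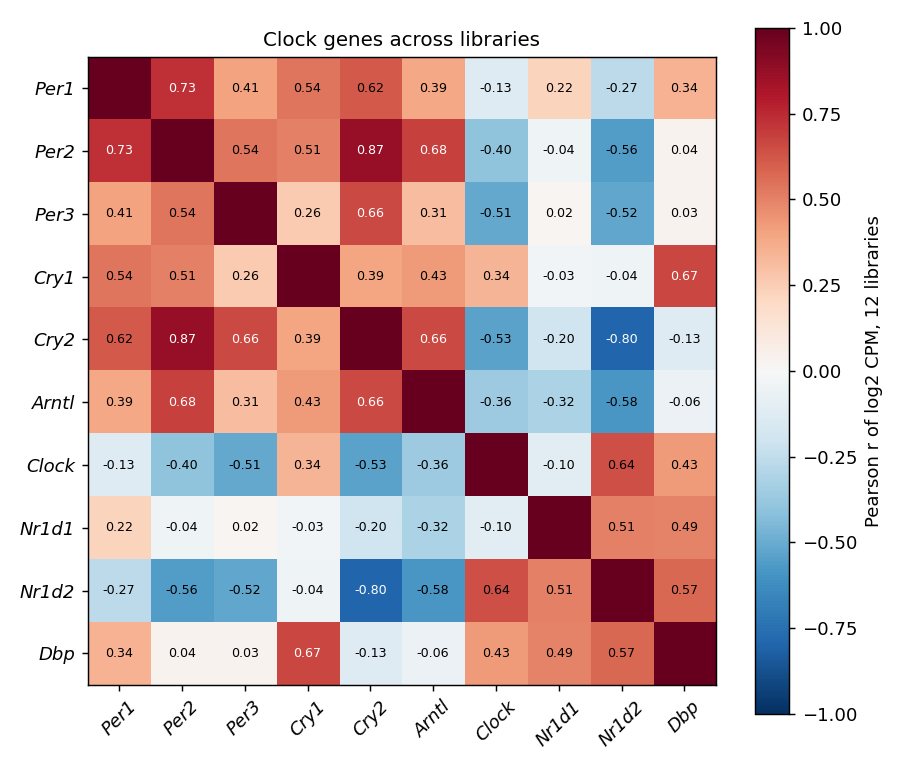
Pearson r of log2 CPM between each pair of the 10 clock genes over 12 libraries, from -1 (blue) to 1 (red). The Per and Cry genes and Arntl form a block of positive values, with Per2 and Cry2 at 0.87, and Nr1d2 is negative with all of them, down to -0.80 with Cry2.

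The genes most like the output gene Dbp and the activator Arntl over the 12 libraries, among the 11735 tested genes at a mean of 5 CPM or more, were named as a description. For Dbp they were Atpaf1 (r = 0.917), Pdrg1 (0.914) and Tbc1d2b (0.900), and the most opposite were Zfp9 (-0.901), Reps1 (-0.886) and B4galt4 (-0.883). Without mutant THC 3 these values shrank to between 0.631 and 0.751 in size. For Arntl they were Snx19 (0.915), Polr3d (0.888) and Esam (0.884), and the most opposite were Tspan4 (-0.928), Smo (-0.901) and Eola1 (-0.890). Without mutant THC 3 the values for Arntl lay between 0.864 and 0.927 in size.

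Of 30 further clock genes (other activators and receptors, PAR-domain factors, kinases and the machinery that degrades PER and CRY), all 30 were tested and 0 were called in any of the 8 comparisons. Their median log2 fold changes lay between -0.03 and 0.04. The 2 with the smallest p-values for THC averaged over genotypes were Bhlhe41 (DEC2), a repressor that competes at E-boxes, and Nfil3 (E4BP4), a repressor at D-boxes. Bhlhe41 had 6.97, 7.39 and 8.002 CPM in mutant THC, 10.002, 10.4 and 8.73 in mutant vehicle, 10.1, 8.24 and 9.06 in control THC and 12.03, 9.46 and 7.88 CPM in control vehicle libraries. Its averaged value was -0.24 ± 0.10 (unadjusted p = 0.0406, adjusted p = 0.81 in edgeR's test). It was the 1 of the 30 with an unadjusted p under 0.05 there, against 6.05% of all genes. All 3 mutant THC libraries were below all 3 mutant vehicle libraries for Bhlhe41, while 8.47% of all genes did not overlap between these groups. Nfil3 stood at 0.19 ± 0.09 (unadjusted p = 0.0561, adjusted p = 0.81 in edgeR's test), at 9.61 ± 1.504 CPM in mutant THC, 8.25 ± 0.615 in mutant vehicle, 10.7 ± 1.01 in control THC and 9.63 ± 0.799 CPM in control vehicle libraries (SD, n = 3 each).

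For the genotype averaged over treatments, 4 of the 30 further clock genes had an unadjusted p under 0.05, against 21.2% of all genes. Csnk1d had the smallest p-value of the further clock genes. Csnk1d encodes casein kinase 1 delta, which marks PER proteins for degradation, and stood at -0.12 ± 0.04 (unadjusted p = 0.0106, adjusted p = 0.16 in edgeR's test). It had 126, 135 and 124 CPM in mutant THC, 132, 125 and 122 in mutant vehicle, 137, 138 and 138 in control THC and 132, 145 and 139 CPM in control vehicle libraries. Mutant THC lay wholly below control THC, while 10.5% of all genes did not overlap between these groups.

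Per1 is a known target of the glucocorticoid receptor in the brain, so its values are set beside those of a list of such targets. Under THC in mutant mice 9 of 14 listed glucocorticoid-induced genes stood above 0, against 47.5% of all genes, 1 with an unadjusted p under 0.05, with a median of 0.048, while Per1 stood at 0.11 ± 0.09. Under THC in control mice 13 of 14 stood above 0, against 50.1% of all genes, 9 with an unadjusted p under 0.05, with a median of 0.29, while Per1 stood at 0.09 ± 0.08. In mutants under vehicle 12 of 14 stood above 0 against control vehicle, beside 48.9% of all genes, 7 with an unadjusted p under 0.05, with a median of 0.22, and Per1 stood at -0.05 ± 0.09. Of the 16 listed immediate early genes, which neuronal activity induces, 12 stood above 0 under THC in mutant mice, 0 with an unadjusted p under 0.05, with a median of 0.07. In control mice 4 of the 16 stood above 0 and 12 below 0 under THC, 5 with an unadjusted p under 0.05, with a median of -0.21. In mutants under vehicle 15 stood below 0, 3 with an unadjusted p under 0.05, with a median of -0.26. None of these genes was called in these 3 comparisons. Of all genes, 5.73% had an unadjusted p under 0.05 for THC in mutants, 7% for THC in controls and 17.8% for genotype under vehicle. The shares of all genes above 0 were 47.5%, 50.1% and 48.9% in that order, beside which the counts of both lists are to be read.

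Some members share sequence with a neighbour, which matters because the sources used here do not say whether strand was used in counting. The exons of Dbp overlap those of Sphk2 on the opposite strand by 539 bases, and 27.52% of the 50-base stretches of Dbp transcripts occur in Sphk2. Nr1d1 overlaps Thra on the opposite strand by 263 bases (8.23% of its stretches) and Cry2 overlaps D930015M05Rik by 295 bases (2.57%). Nr1d2 shares 277 of its 4614 stretches with AC170187.1 on the same strand, which strand would not separate. The stretches were compared in GENCODE transcripts, while counting used RefSeq transcripts, so AC170187.1 need not have drawn reads from Nr1d2. Expected counts of Nr1d2 were not whole in 10 of the 12 libraries. Those of Clock, for which no shared stretch was found, were not whole in any of the 12. Sphk2 stood at 21.3 to 27.1 CPM and Thra at 330 to 432 CPM over the libraries, so reads of Dbp and Sphk2, and of Nr1d1 and Thra, cannot be fully told apart. In mutant THC 3, where Dbp was at 98.6 CPM, Sphk2 was at 22.8 CPM. Thra stood at -0.17 ± 0.06 for the genotype averaged over treatments and 0.04 ± 0.06 for THC averaged over genotypes, neither called. D930015M05Rik did not exceed 0.0841 CPM in any library.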

How the data were processed

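Total RNA from mouse hippocampus was measured in 12 libraries, 3 in each of 4 groups taken from the labels. Per the file headers, the values are RSEM expected counts on RefSeq transcripts, 1 row per gene and 1 column per library, which the authors left unscaled for depth and length. Upstream, the submitters' processing notes list Bowtie2 2.2.2, RSEM 1.2.21 and edgeR 3.10.2, beside CASAVA 1.8.4 and FastQC, with the build mm10. Between 27.2% and 29.4% of values per library were not whole, since RSEM shares ambiguous reads between genes, and the sources used here do not state the strand setting. Symbols came from the RefSeq annotation of GRCm38.p6 (23011 rows) and GENCODE (129 rows), and 235 rows without one held 0.73% of the counts.

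The deposited expected counts were rounded, filtered with filterByExpr (15802 genes) and scaled with TMM. The main test was edgeR 4.0.16's quasi-likelihood F test (R 4.3.3), with 4 group means over all 12 libraries, 8 comparisons, and Benjamini-Hochberg adjustment over all genes tested. CPM are counts per 1000000 of the TMM-scaled library. Intervals are 95% intervals from the fit. Correlations used log2 CPM with a prior count of 2 and 100000 permutations (scipy 1.17.1). Motifs were searched in the RefSeq promoter table. The code was tested on simulated data with known changes. Alternatives were RLE and upper-quartile scaling, DESeq2 1.42.0, limma-voom (limma 3.58.1), no filter, a filter of 1 CPM in 3 libraries, only the compared groups, Ttr as a covariate and leaving out each library.

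The 10 members were always named, with the further clock genes past the threshold or, failing that, the 2 with the smallest p-values in the averaged effects, and the 3 genes most and least like Dbp and Arntl. One gene that this rule names is not reported here. The members and lists were chosen with earlier results of these data known. The genes that overlap a member (Sphk2, Thra and D930015M05Rik) the split of libraries by 1000 CPM of Ttr and the deviations without mutant THC 3 were added after the data were seen.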

Additional observations from a re-analysis of the deposited data

How the results depend on the processing

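In all 8 comparisons 0 of the 10 clock genes were called. This held under each of the 20 alternatives wherever it was run, 12 of which leave out 1 library. The fit on only the compared groups was run for comparisons of 2 groups, so the interaction and both averaged effects had 19 alternatives. The smallest adjusted p was 0.0567, for Per2 under vehicle (mutant against control) with DESeq2, which called 781 genes there against 1 for edgeR and 0 for limma-voom, and 523 with edgeR on those 2 groups alone. For the averaged genotype effect DESeq2 called 785 genes and edgeR without mutant THC 2 called 942, against 1. DESeq2 called 158 genes for mutant THC against control vehicle, 34 for the interaction, 3 for THC in mutants, 12 for THC in controls, 7 for genotype under THC and 3 for averaged THC, where edgeR called 1 or 0. Without mutant THC 1, edgeR called 3 genes for THC in mutants, 6 for genotype under vehicle and 10 for the interaction. No scaling moved the median of all genes by more than 0.1. Of 1570 gene values under alternatives, 83 changed sign, 60 of them with 1 library left out, none with an adjusted p below 0.586, and the cause was not tested. With Ttr as a covariate, THC in controls gave 0.031 for Arntl and -0.012 for Clock, and THC in mutants 0.010 for Clock. In the same fit the genotype effect gave -0.197 for Dbp and -0.006 for Nr1d2 under vehicle, 0.000 for Nr1d2 under THC, and 0.028 for Arntl, -0.038 for Dbp and -0.003 for Nr1d2 on average. The interaction there was 0.022 for Clock, -0.041 for Cry2 and 0.005 for Nr1d2, and mutant THC against control vehicle was 0.037 for Per2, 0.008 for Per3 and -0.070 for Dbp. THC in mutants gave -0.041 for Dbp with limma-voom, and for Clock 0.002 with no filter and 0.000 with 2 groups. Averaged THC for Clock was 0.003 with no filter and 0.006 with upper-quartile scaling, averaged genotype for Nr1d1 -0.012 with no filter, and Per2 in mutant THC against control vehicle 0.006 with upper-quartile scaling or 2 groups.

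With 1 library left out at a time, THC in controls ranged over -0.018 to 0.085 for Cry1, -0.077 to 0.067 for Arntl, -0.016 to 0.024 for Clock and -0.178 to 0.021 for Dbp. THC in mutants ranged over -0.053 to 0.041 for Clock and -0.366 to 0.229 for Dbp. Genotype under vehicle ranged over -0.114 to 0.015 for Per1, 0.000 to 0.199 for Dbp and -0.020 to 0.107 for Nr1d1. Genotype under THC ranged over -0.113 to 0.021 for Per1, -0.121 to 0.043 for Per2, -0.146 to 0.012 for Cry2, -0.188 to 0.411 for Dbp, -0.119 to 0.060 for Nr1d1 and -0.034 to 0.127 for Nr1d2. The interaction ranged over -0.067 to 0.087 for Per1, -0.167 to 0.060 for Per3, -0.063 to 0.030 for Clock, -0.266 to 0.331 for Dbp, -0.149 to 0.029 for Nr1d1 and -0.153 to 0.007 for Nr1d2. Averaged THC ranged over -0.021 to 0.026 for Clock and -0.233 to 0.063 for Dbp. Averaged genotype ranged over -0.015 to 0.167 for Cry1, -0.055 to 0.245 for Dbp and -0.045 to 0.045 for Nr1d1. Mutant THC against control vehicle ranged over -0.020 to 0.111 for Per1, -0.082 to 0.082 for Per2, -0.110 to 0.047 for Per3 and -0.288 to 0.308 for Dbp.

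Of the 2 correlated pairs, 1 passed with RLE scaling, 3 pairs passed without mutant THC 3, among them both, and 2 other pairs passed as deviations from the group means. Leaving out the 2 farthest libraries was run per pair as r alone, with no count. No paired analysis was possible because the labels do not pair libraries of different groups. With 3 libraries a group, the unadjusted 95% intervals of the members reached from about 0.1 on the log2 scale (Clock) to 0.5 (Dbp) on either side in comparisons of 2 groups. Larger differences could also go uncalled, since calls used p-values adjusted over all genes tested. Per2 under THC in mutants, at 0.29 with an interval of 0.10 to 0.48, had an adjusted p of 0.81 in edgeR's test.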
